A study of Caenorhabditis elegans with 2 samples.

Results

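The respiratory chain and ATP synthase genes described here are the protein-coding genes of Caenorhabditis elegans whose names begin nuo-, cox-, ucr-, cyc-, sdha-, sdhb-, atp-, asb- or asg- in the Ensembl annotation, release 115, of the WBcel235 assembly. There are 41 of them among 19973 protein-coding genes on the nuclear chromosomes. The name rule leaves out genes of the same complexes with other names, some of which are counted further below. Binding of MADF-6, a protein with an MADF domain (a fold that contacts DNA), was mapped by chromatin immunoprecipitation and sequencing in whole worms. The strain, RW12237, carries the CRISPR insertion st12237[madf-6::TY1::EGFP::3xFLAG] I, so that the tagged protein is made from its own gene, and chromatin was recovered with an antibody against GFP. All animals were synchronised as L1 larvae starved after bleaching and taken as young adults at 63 h, with no treatment and no second genotype. The 2 libraries are labelled as biological replicates of this 1 group, and both were set against the same control library. No untagged strain was analysed here, so recovery that does not depend on MADF-6 cannot be told apart from binding by it, and since whole animals were used, binding in few cells cannot be told apart from weak binding in many.

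The respiratory chain takes electrons from NADH at Complex I and from succinate at Complex II and hands them by way of ubiquinone to Complex III, then by cytochrome c to Complex IV, which reduces oxygen to water. Complexes I, III and IV pump protons across the inner mitochondrial membrane, and ATP synthase lets the protons back through and makes ATP. Nuclear genes encode most subunits in this species and the mitochondrial genome encodes the rest, and the germ line and early embryo depend on the pathway. Several subunits have a pair of nuclear genes, and asb-1 is known as the ATP synthase b subunit of the germ line.

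Sequences of 151 bp centred on the summit, the point of highest signal in a peak, show what lay under the peaks at members of every complex but Complex II. They were read from the RefSeq copy of WBcel235 and are written 5′ to 3′ on the strand of the gene. The members shown were chosen for a strong peak or for a short word that they share. Capitals mark 3 words on either strand, which are GGGCGG (a GC box), GCGCCTTT and CTCGNAACG, and the last 2 were picked because they recurred in these sequences. The asb-2 line is the stretch that lies as far upstream of asb-2 as the asb-1 summit lies upstream of asb-1. It had no peak of the authors' conservative list, described below. The longer ranked list of replicate 1 had a weak summit in it, with a signal of 10.91 (rank 33849). In the order printed the windows are chrIII:4595951-4596101 on the minus strand, chrIII:5228093-5228243 on the plus strand, chrIII:5591897-5592047 on the plus strand, chrII:11097457-11097607 on the plus strand, chrIV:4748891-4749041 on the minus strand, chrV:5536565-5536715 on the minus strand, chrIII:12905132-12905282 on the plus strand and chrX:4469486-4469636 on the plus strand.
asb-1: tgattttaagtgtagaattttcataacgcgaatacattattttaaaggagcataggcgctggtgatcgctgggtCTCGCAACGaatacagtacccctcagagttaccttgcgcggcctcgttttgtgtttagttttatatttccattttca
atp-2: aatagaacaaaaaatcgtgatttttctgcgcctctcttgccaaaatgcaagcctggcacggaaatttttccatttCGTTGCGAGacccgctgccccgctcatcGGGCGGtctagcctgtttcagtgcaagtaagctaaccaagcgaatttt
ucr-1: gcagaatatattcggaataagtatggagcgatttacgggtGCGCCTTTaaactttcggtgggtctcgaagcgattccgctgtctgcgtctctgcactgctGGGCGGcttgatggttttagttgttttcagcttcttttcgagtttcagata
nuo-1: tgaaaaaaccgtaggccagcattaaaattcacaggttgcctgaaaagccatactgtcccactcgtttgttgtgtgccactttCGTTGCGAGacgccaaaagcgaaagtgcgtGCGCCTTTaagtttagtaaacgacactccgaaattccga
cyc-2.1: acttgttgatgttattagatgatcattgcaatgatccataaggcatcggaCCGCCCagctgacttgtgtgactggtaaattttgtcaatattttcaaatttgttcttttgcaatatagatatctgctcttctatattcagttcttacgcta
cox-16: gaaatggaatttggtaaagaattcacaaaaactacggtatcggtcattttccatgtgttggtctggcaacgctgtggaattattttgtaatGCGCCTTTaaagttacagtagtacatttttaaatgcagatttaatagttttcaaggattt
cox-5A: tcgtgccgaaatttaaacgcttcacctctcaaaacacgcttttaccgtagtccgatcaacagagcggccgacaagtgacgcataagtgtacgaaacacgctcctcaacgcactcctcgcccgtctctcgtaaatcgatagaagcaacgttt
asb-2: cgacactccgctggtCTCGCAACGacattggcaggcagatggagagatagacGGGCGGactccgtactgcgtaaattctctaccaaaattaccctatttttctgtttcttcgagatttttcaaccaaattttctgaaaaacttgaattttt

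Within 50 bp of a summit, GGGCGG or its complement was found at 6 of the 23 summits that lie within 500 bp of a bound member (26.1%), namely at ucr-1, atp-1, atp-2, atp-3 and both summits of cyc-2.1. The share was 5.18% over all 4384 summits of the list and 2.0% over 8768 windows centred 500 bp to either side of them. The word GCGCCTTT stood at 4 member summits (17.4%), those of nuo-1, sdha-2, ucr-1 and cox-16, against 8.71% of all summits and 0.81% of flanking windows. CTCGNAACG stood at 3 (13.0%), those of nuo-1, asb-1 and atp-2, against 1.57% of all summits and 0.251% of flanking windows. Because these last words were chosen from the sequences above, their member counts are descriptions only. The asb-2 stretch held CTCGNAACG and GGGCGG as well, although the conservative summit nearest to the asb-2 5′ end was 17635 bp away. Its CTCGNAACG lay more than 50 bp from the centre of the stretch, so the rule used for the counts would not have taken it. The stretch at cox-5A, the second strongest member, held none of the words. The splice acceptor word TTTCAG was found at 3 member summits (13.0%, all summits 10.3%) and CTGCGTCT and GAGAGA at 1 each (4.35%, all summits 4.58% and 10.8%). The GATA word GATAAG, the E-box CACGTG, the E2F word TTTCCCGC and the cyclic AMP element TGACGTCA were at 0 member summits and at 0.981% to 2.69% of all summits. The windows around member summits had a median GC content of 51.5% (25.7% to 61.4%), and those around all summits had a median of 43.6%.

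MADF-6 summits lay at 18 of the 41 genes (43.9%, 95% Wilson interval 29.9 to 59.0). Bound here means that the annotated 5′ end has a summit of the authors' conservative list, made from both replicates and 4384 peaks long, at a distance of up to 500 bp. The same rule called 12.3% of all nuclear protein-coding genes. In replicate 1's own thresholded list, of 2803 peaks, 13 members had a summit (31.7%, all genes 8.75%). In replicate 2's own list, of 4519 peaks, 18 had one (43.9%, all genes 12.9%). The ranked lists, which also hold peaks that the thresholded lists leave out, had a summit at 33 members in replicate 1 (80.5%, all genes 45.5%). In replicate 2 they had one at 31 (75.6%, all genes 47.3%). They do not hold every conservative peak, as the nuo-2 peak has no match in replicate 2's ranked list. Intervals cover counting error only and treat genes as independent. An annotated end may lie away from the start of transcription, because trans-splicing is common in worms. A summit that lies between 2 divergent 5′ ends was counted for both genes. Read depth is unknown for both libraries.

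In the conservative list the share of bound genes was highest for ATP synthase and lowest for the assembly factors of Complex IV with cox- names. In replicate 1's own list it was lowest for Complex I, at 1 of 6 (16.7%), with the assembly factors at 2 of 8. Of 9 ATP synthase genes 7 were bound (77.8%, interval 45.3 to 93.7), and of 6 Complex I genes 3 were (interval 18.8 to 81.2). Complex IV structural subunits stood at 3 of 7 (42.9%, interval 15.8 to 74.95), Complex III with cytochrome c at 3 of 8 (37.5%, interval 13.7 to 69.4) and Complex II at 1 of 3 (33.3%, interval 6.15 to 79.2). Of the 8 assembly factors 1 was bound (12.5%, interval 2.24 to 47.1), a share next to the 12.3% of all genes. The intervals of all 6 groups overlap one another, so with so few genes the order of the complexes is not resolved. The plot of shares by complex sets these beside each replicate's own list.

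**Figure D1:**
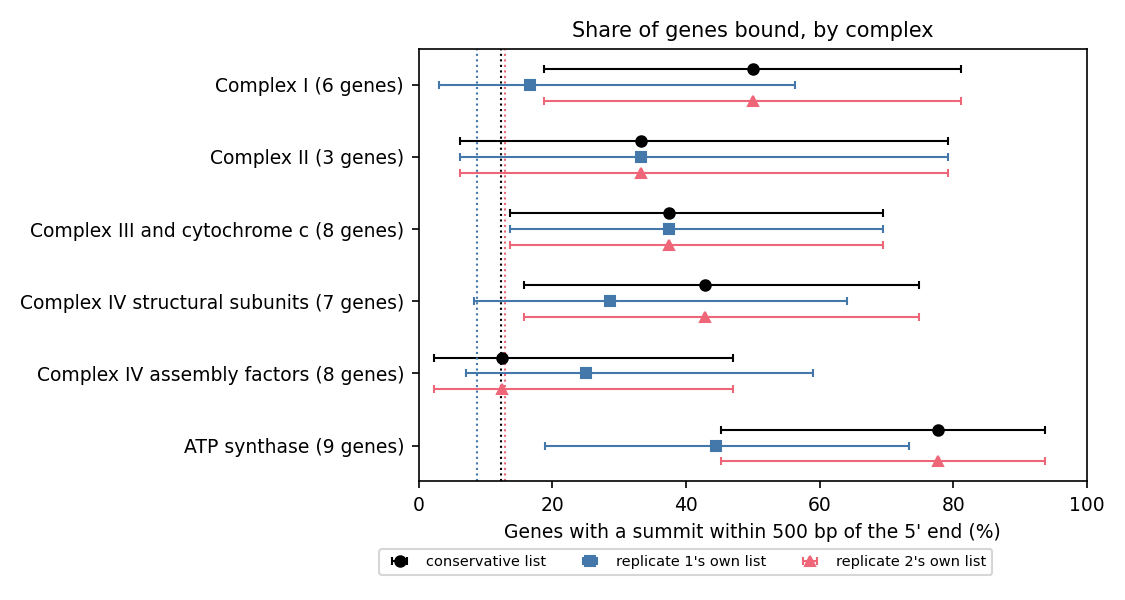
Share of genes with a summit within 500 bp of the 5′ end (x axis, percent) for each complex (y axis), in the conservative list (black circles), replicate 1's own list (blue squares) and replicate 2's own list (red triangles). Bars are 95% Wilson intervals and dotted lines are the shares of all protein-coding genes, 12.3%, 8.75% and 12.9%; the whole interval lies to the right of that list's line in all 3 lists for ATP synthase and for Complex III with cytochrome c.

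In ATP synthase, the genes of both large subunits of the catalytic head were bound, as was every other gene of the list but asb-2 and asg-2. The atp-1 gene, for the alpha subunit (chromosome I, 12652277 to 12654655, plus strand), had the strongest peak of the complex, with a summit 8 bp upstream. Signal is the authors' enrichment value, and its scale differs between lists, so each is read by its rank. For atp-1 it was 547.7 in the conservative list (rank 441 of 4384), 167.7 in replicate 1 (rank 464) and 397.1 in replicate 2 (rank 410), where replicate ranks are those in the ranked lists of 57453 and 65847 peaks. The asb-1 summit lay 205 bp upstream with a signal of 491.8 (rank 509), and its replicate signals were 145.9 (rank 576) and 352.4 (rank 493). The beta subunit gene atp-2 had its stronger summit 249 bp upstream, with a signal of 221.2 (rank 1436) and replicate signals of 72.29 (rank 1422) and 147.0 (rank 1518). A weaker summit of atp-2, with a signal of 85.76, lay 289 bp inside the gene and was in neither replicate's own list. In these 3 genes the replicates placed the main peak within 100 ranks of each other.

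The 4 other bound genes of the complex had signals of 133.8 to 157.9, near the median of the whole list (148.7). They were asg-1 (subunit g; 157.9, summit 287 bp upstream), atp-5 (subunit d; 154.5, 273 bp upstream), atp-4 (coupling factor F6; 133.9, 491 bp upstream, with another summit of 121.7 at 100 bp inside the gene) and atp-3 (the OSCP subunit; 133.8, 10 bp upstream). Replicate 2's own list held all 4, with signals of 97.83 to 111.5. Replicate 1's own list held asg-1 alone of them, with a signal of 48.1 at rank 2333 of the ranked list. In replicate 1's ranked list atp-3 stood at rank 2557 with a signal of 44.33 and atp-5 at rank 2974 with 39.86. The peak at atp-4 nearest its upstream summit stood there at rank 2946 with a signal of 40.07, and the peak inside the gene at rank 2349 with 47.8. Both atp-3 and the inner peak of atp-4 therefore ranked within the first 2803 of replicate 1 by signal. They were left out by score, the authors' scaled irreproducible discovery rate, which is at least 830 in all thresholded lists and was 74 and 49 at these peaks. At atp-5 the score in replicate 1 was 811, and at the upstream peak of atp-4 it was 537.

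Complex IV, cytochrome c oxidase, held the strongest and the second strongest peaks of the 41 genes. The cox-5B gene, for a structural subunit (chromosome I, 9788725 to 9790050, plus strand), had a summit 29 bp upstream with a signal of 1660 (rank 58), 516.3 in replicate 1 (rank 67) and 1140 in replicate 2 (rank 61). At cox-5A, the gene of another structural subunit (chromosome III, 12905491 to 12906619, plus strand), the summit lay 284 bp upstream at the same base in both replicates. Its signal was 960.9 (rank 168), with 320.2 in replicate 1 (rank 163) and 650.9 in replicate 2 (rank 176). Both genes were the only annotated protein-coding 5′ end within 500 bp of their summit. The third bound structural gene, cox-6C (chromosome IV, 126731 to 127640, plus strand), was far weaker, with a signal of 101.5 (rank 3110) and a summit 443 bp upstream. It was in replicate 2's own list with a signal of 67.38 (ranked at 3457) and not in replicate 1's, where its ranked signal was 34.82 (rank 3649) and its score 474.

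Among the assembly factors with cox- names, which insert haem and copper or bring subunits together, only cox-16 was bound in the conservative list. Its summit lay 397 bp upstream with a signal of 786.3 (rank 243), and the replicates had 182.4 (rank 414) and 605.7 (rank 202). The 5′ end of syp-2, a gene of the synaptonemal complex on the opposite strand, was nearer to that summit, which lies 153 bp inside syp-2, so the peak cannot be assigned to cox-16 alone. The copper chaperone gene cox-17 appeared among the thresholded peaks of replicate 1 alone, with a summit 134 bp inside the gene, a signal of 45.76 (rank 2297 there, 2462 of the ranked list) and a score of 1000. Replicate 2's ranked list had no summit within 500 bp of it. Of the rest, cox-15 and cox-18, for haem synthesis and membrane insertion, had ranked summits in both replicates, with signals of 23.66 and 12.31 in replicate 1 and 19.0 and 23.31 in replicate 2. The haem synthesis gene cox-10 had a ranked summit in replicate 1 alone (24.78, rank 7263) and the copper insertion gene cox-11 in replicate 2 alone (10.92, rank 52915). The genes cox-14 and cox-19 had none in either.

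The structural genes of Complex IV with no bound call were cox-4, cox-6A, cox-6B and cox-7C, and 3 of them had a conservative summit not far outside the window. At cox-6A the nearest summit was 783 bp upstream with a signal of 397.8. Those of cox-4 and cox-7C lay 950 and 970 bp from the 5′ end in the direction of transcription, with signals of 130.0 and 100. Within 500 bp, cox-4 and cox-6A had ranked summits in both replicates and cox-7C in replicate 2 alone, none in an own list. The call for cox-6B depends on the gene model, since the annotated gene starts at 2699663 on chromosome III with a long transcript, Y71H2AM.5.2, while the transcript Y71H2AM.5.1 runs from 2786202 to 2786754 on the plus strand. A conservative summit with a signal of 499.7 (rank 499) lay 152 bp upstream of that shorter transcript. The 5′ end of Y71H2AM.20, on the opposite strand, is nearer to it, at 102 bp. From the gene's own annotated 5′ end the nearest summit was 10754 bp away, and no ranked list had one within 500 bp. Of bound genes, the next nearest to the window's edge after cox-6C, by nearest summit, were cox-16 at 397 bp and cyc-1 at 289 bp. The nearest outside it, beyond those already named, were ucr-11 at 1289 bp, cox-10 at 1901 bp and cox-15 at 2378 bp.

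**Figure D2:**
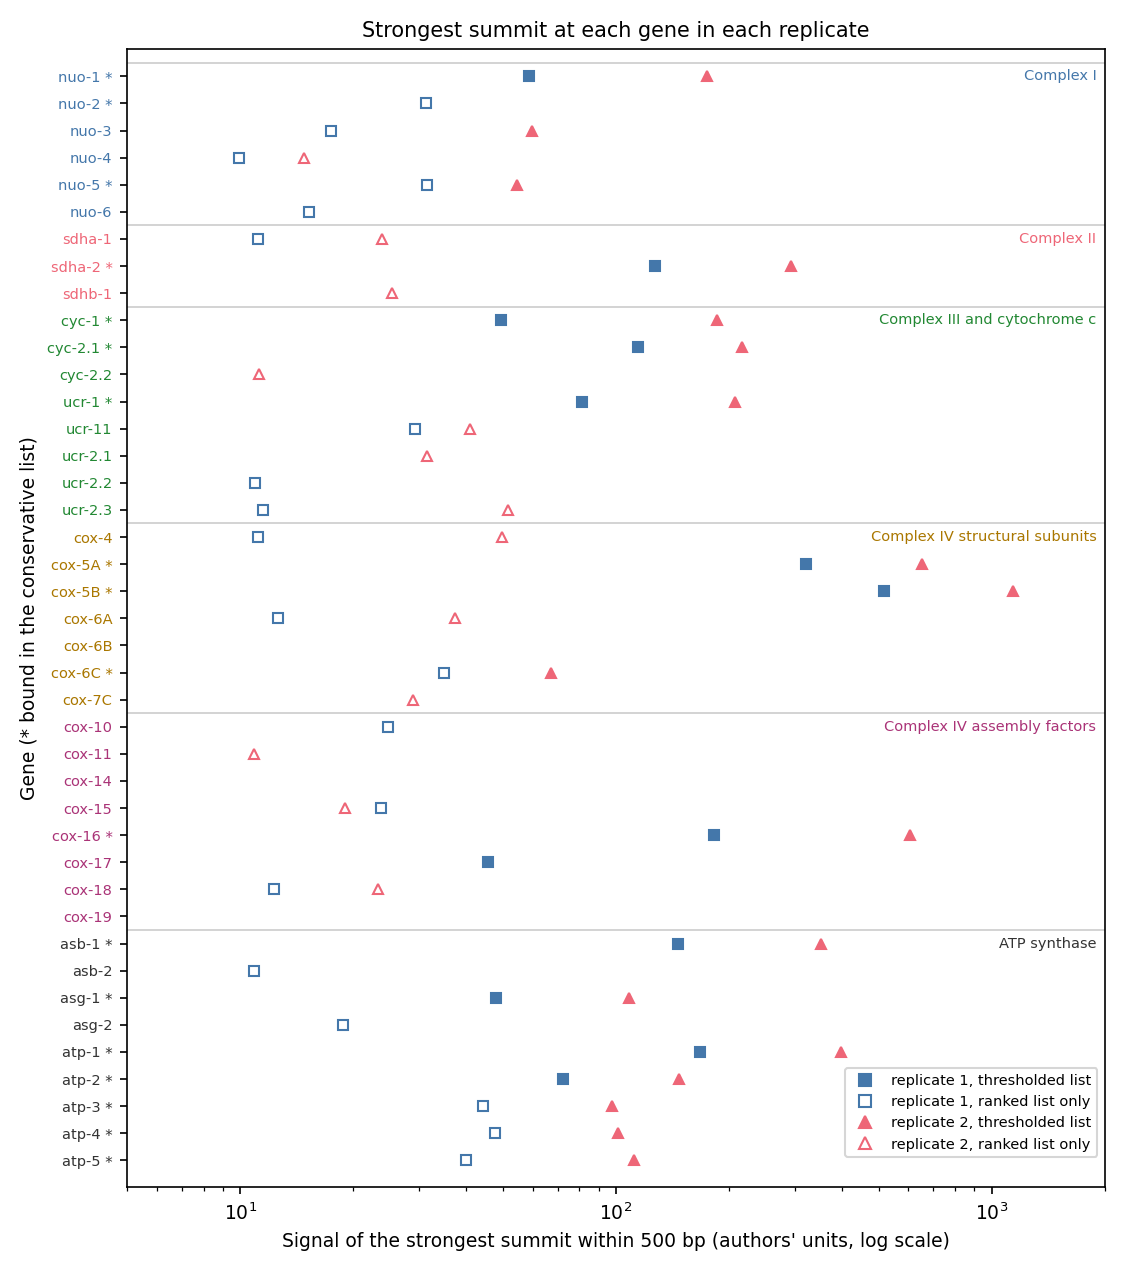
Signal of the strongest summit within 500 bp of each of the 41 genes (x axis, authors' units on a log scale) in the ranked list of replicate 1 (blue squares) and replicate 2 (red triangles), grouped by complex. Filled symbols are also in that replicate's own thresholded list, open ones only in the ranked list, and asterisks mark bound genes; cox-5B, cox-5A and cox-16 are furthest to the right in both replicates, and cox-6B, cox-14 and cox-19 have no symbol.

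Complex III and cytochrome c had 3 bound genes of middle strength, all of them in both replicates' own lists. The cytochrome c gene cyc-2.1 (chromosome IV, 4747895 to 4749012, minus strand) had a summit 46 bp inside the gene with a signal of 295.1 (rank 994), and replicate signals of 114.4 (rank 805) and 216.4 (rank 942). A further summit 469 bp inside cyc-2.1 had a signal of 103.3, with a match in replicate 2's ranked list (90.58, score 99) and none in replicate 1's. The core protein gene ucr-1 had a summit 163 bp upstream with a signal of 279.4 (rank 1078), and replicate signals of 81.33 (rank 1227) and 207.1 (rank 996). At cyc-1, which encodes cytochrome c1, the summit lay 289 bp upstream with a signal of 233.8 (rank 1319). Its replicate ranks were less alike, at 2256 (signal 49.34) and 1139 (signal 186.1). The small subunit gene ucr-11 was not bound, and its strongest ranked summits, 37 bp upstream in replicate 1 (29.29, rank 5026) and 40 bp inside the gene in replicate 2 (40.92, rank 7991), were in neither own list. In the ranked list that combines the replicates its score was 746, below the 830 of the thresholded lists.

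Among the 6 nuo- genes of Complex I the strongest peak was that of nuo-1, the gene of the subunit that holds the NADH-binding site (chromosome II, 11097837 to 11100146, plus strand). Its stronger summit lay 305 bp upstream with a signal of 208.1 (rank 1534), and the replicates had 58.77 (rank 1837) and 174.9 (rank 1222). A second summit, 155 bp inside nuo-1, had a signal of 76.49 and was in replicate 2's own list. The genes nuo-2 and nuo-5, both for core subunits of the peripheral arm, had signals of 103.1 (rank 3063, 140 bp upstream) and 93.88 (rank 3344, 4 bp inside the gene). The nuo-5 peak was in replicate 2's own list (54.61, score 938) and had a score of 619 in replicate 1 (31.35). The nuo-2 peak is the least supported of the 18: replicate 1's ranked list had it at rank 4434 with a signal of 31.18 and a score of 193, replicate 2's had no summit within 500 bp, and the less strict combined list did not hold it.

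The remaining Complex I genes, for accessory subunits, were not bound. At nuo-3, replicate 2's own list had a summit 497 bp upstream with a signal of 59.96 (rank 3723) and a score of 979, while replicate 1's strongest ranked summit (17.48) lay inside the gene. The nuo-4 gene had ranked signals of 9.917 and 14.83 in replicates 1 and 2, and nuo-6 had 15.28 in replicate 1 and no summit in replicate 2. In Complex II, succinate dehydrogenase, the flavoprotein gene sdha-2 was bound and the iron-sulfur subunit gene sdhb-1 was not. At sdha-2 (chromosome I, 10683270 to 10685587, minus strand) the summit lay 130 bp upstream with a signal of 406.6 (rank 669), and the replicates had 127.4 (rank 684) and 291.7 (rank 652). At sdhb-1 replicate 2's ranked list had a summit with a signal of 25.31 (rank 22772), replicate 1's had none, and the combined ranked list had it at 32.06 (rank 26433, score 38).

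Where a subunit has a pair of closely related genes, 1 gene of the pair was bound and the other was not. The proteins of sdha-1 and sdha-2 share 80.3% of residues, those of cyc-2.1 and cyc-2.2 78.4%, those of asg-1 and asg-2 76.3% and those of asb-1 and asb-2 72.1%, counted over the shorter protein in a global alignment. In each pair the bound gene had signals in both replicates' own lists, and its partner was in neither. At sdha-1 the ranked signals were 11.15 (rank 33127) and 23.8 (rank 25561), against 127.4 and 291.7 at sdha-2. At asb-2 the only ranked signal was 10.91, in replicate 1 (rank 33849), against 145.9 there at asb-1. The asg-2 gene had 18.8 in replicate 1 (rank 13924), where asg-1 had 48.1, and none in replicate 2, where asg-1 had 108.1. At cyc-2.2 replicate 2 had 11.24 (rank 52278) and replicate 1 none, against 216.4 and 114.4 at cyc-2.1. The nearest conservative summits to sdha-1, asg-2, asb-2 and cyc-2.2 were 100505, 26646, 17635 and 15184 bp away. No test of these differences was run, since each gene has 1 value per replicate.

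The other core protein of Complex III is encoded by ucr-2.1, ucr-2.2 and ucr-2.3, whose proteins share 35.8% to 39.1% of residues with each other, and none of the 3 was bound. Replicate 2 had ranked signals of 31.41 at ucr-2.1 (rank 14523) and 51.57 at ucr-2.3 (rank 4969, score 764). Replicate 1 had 10.98 at ucr-2.2 (rank 33662) and 11.51 at ucr-2.3 (rank 31932). Replicate 2 had no summit at ucr-2.2 and replicate 1 none at ucr-2.1. The ucr-2.3 peak of replicate 2 thus scored below the 830 of its own list, and the nearest conservative summits to these genes were 3244 to 20458 bp away. No other members with like names shared 30% of residues or more. How the authors treated reads that match more than 1 place is not given in the sources used here.

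All 5 members on the X chromosome, sdha-1, ucr-2.1, ucr-2.2, asb-2 and asg-2, were without a bound call, in a chromosome where 1.87% of genes were bound (51 of 2731). Of the 36 autosomal members 18 were bound, against 14.0% of autosomal genes. In 3 of the 4 pairs the unbound gene is the X-linked one and the bound gene autosomal, so for these the chromosome and the gene copy cannot be told apart. The exception is the cytochrome c pair, with cyc-2.1 on chromosome IV and cyc-2.2 on chromosome V, and ucr-2.3 on chromosome III was unbound as well. By chromosome the members bound were 7 of 12 on I (all genes 19.4%), 1 of 4 on II (13.8%), 4 of 10 on III (20.8%), 2 of 5 on IV (12.9%) and 4 of 5 on V (8.13%).

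The replicates gave the bound members much the same order, which is in part built in, since the authors made the conservative list from peaks of both. Of the 18, 12 were in both replicates' own lists (66.7%, against 65.6% of all bound genes). The 5 genes nuo-5, cox-6C, atp-3, atp-4 and atp-5 were in replicate 2's alone (27.8%, against 24.7%), none was in replicate 1's alone, and nuo-2 was in neither. The 23 summits at bound genes had a match within 100 bp in both ranked lists in 20 cases. In these the replicates' summits were 0 to 69 bp apart with a median of 7.5 bp, and 13 were no more than 10 bp apart. Another summit in nuo-5, 204 bp inside the gene with a signal of 8.117 (rank 4333), had no match in either ranked list. Among the 23 genes not bound, 9 had a ranked summit in both replicates (39.1%, against 28.1% of all unbound genes), 11 in 1 replicate (47.8%, against 21.7%) and 3 in neither (13.0%, against 50.2%). For the 26 members found in both ranked lists, the plot of ranks sets the replicates side by side. The larger rank was 1.03 to 2.05 times the smaller at the 17 bound genes (median 1.1) and 1.11 to 6.43 times at the 9 others (median 2.89). These ranges overlap, since cox-18, nuo-4, sdha-1 and ucr-11 had ratios of 1.11 to 1.59 while bound cyc-1 and cox-16 had 1.98 and 2.05. Each ratio takes the strongest summit in each replicate, which need not be the same peak. At atp-4, with the ratio of 1.03, it was the inner peak in replicate 1 and the upstream peak in replicate 2. At unbound nuo-3, ucr-2.3, cox-4, cox-6A and cox-15 the replicates' strongest summits also lay more than 100 bp apart. The ratios therefore do not measure agreement on a peak at these genes.

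**Figure D3:**
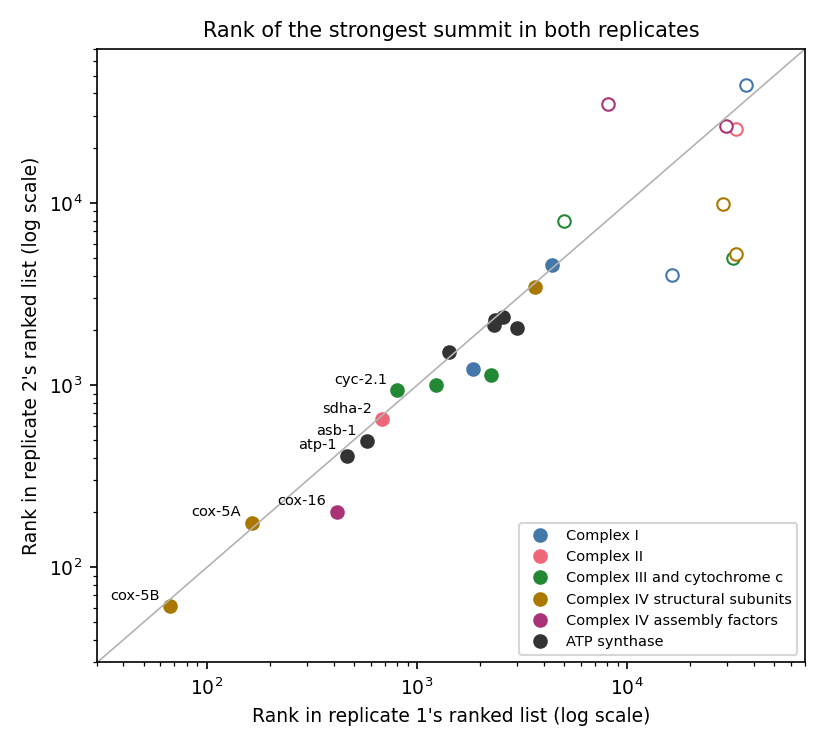
Rank of the strongest summit within 500 bp of a gene in replicate 1's ranked list (x axis, log scale) and replicate 2's (y axis, log scale), for the 26 members that have one in both; colours are complexes, filled circles the 17 bound genes and open circles the 9 not bound. The line marks equal rank, and bound genes from cox-5B (67 and 61) to nuo-5 (4397 and 4556) lie within a ratio of 2.05 of it, and the open circles reach a ratio of 6.43. The ranks of a gene may belong to different peaks in the replicates, as at atp-4.

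Signals at bound members ran from 93.88 at nuo-5 to 1660 at cox-5B with a median of 227.5, and the median over all 2462 bound genes was 202.7. Of the 18, 4 were among the first 500 ranks (22.2%, all bound genes 17.8%). The strongest summit was upstream of or at the 5′ end in 16 (88.9%, all bound genes 80.6%), the exceptions being cyc-2.1 and nuo-5. The median position was 227 bp upstream (quartiles 54.25 and 288.5), against 160 bp for all bound genes (38.25 and 279).

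**Figure D4:**
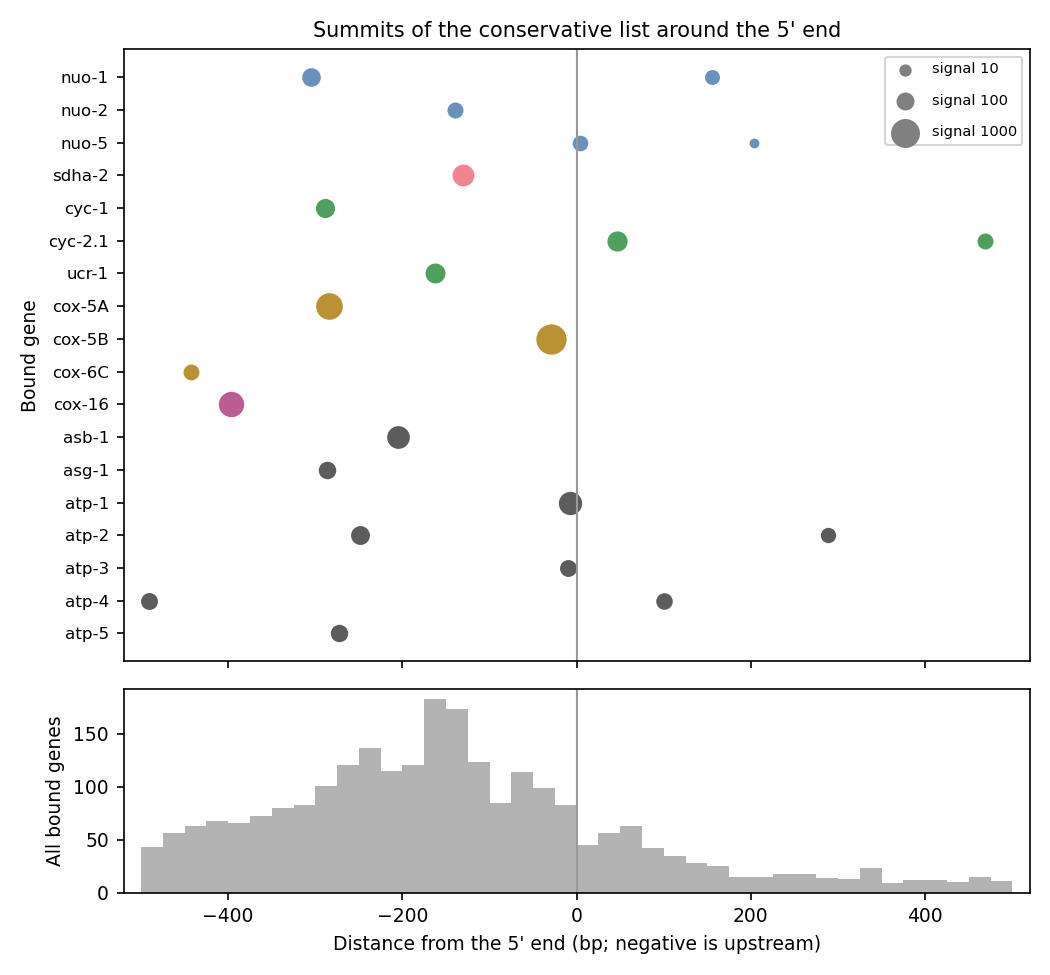
Summits of the conservative list within 500 bp of the 18 bound genes (upper panel, 1 line a gene, circle area growing with the square root of signal) and the strongest summit of all 2462 bound genes (lower panel, number of genes per bin), by distance from the 5′ end in bp with upstream to the left. Most circles lie left of the line at 0, and nuo-1, nuo-5, cyc-2.1, atp-2 and atp-4 have a second summit inside the gene.

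Summits at 9 of the bound genes lay within 500 bp of another protein-coding 5′ end, always on the opposite strand, and at the other 9 they did not. The share of all bound genes with such a neighbour was not counted, so sharing cannot be called a trait of these members. When each summit went to its nearest 5′ end only, 14 of the 18 members and 2032 of all 2462 bound genes kept a call. The neighbour was the nearer gene at asg-1, whose summit is 37 bp upstream of the mitochondrial ribosomal protein gene mrps-15, and at atp-5, whose summit is 46 bp upstream of lmtr-3. It was also nearer at cox-6C (grld-1, 357 bp) and at cox-16 (syp-2). The member was nearer at nuo-1 (rpl-36.A, a ribosomal protein gene, 328 bp), ucr-1 (ddx-15, 254 bp), atp-1 (mcrs-1, 182 bp), atp-3 (F27C1.2, 239 bp) and atp-2 (C34E10.12 and C34E10.10, 287 and 284 bp). The genes with no such neighbour were asb-1, atp-4, cox-5A, cox-5B, cyc-1, cyc-2.1, nuo-2, nuo-5 and sdha-2. For 7 of these a gene on the same strand ends within 500 bp upstream of the 5′ end (7 of 18 bound members, 38.9%, against 25.5% of all bound genes). The share was the same, 16 of 41 (39.0%), over all members, bound or not. The 7 include cyc-2.1, 111 bp behind the ribosomal protein gene rpl-20, and sdha-2, 238 bp behind the Complex I gene ndua-13. In worms such close genes can be transcribed as an operon, and operons were not looked up here. The upstream atp-4 summit lies within that preceding gene, alh-4, and the nuo-2 summit within T10E9.14.

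Of 62 further genes of mitochondrial energy metabolism, listed by name and not covered by the name rule, 23 were bound (37.1%, all genes 12.3%). The list takes in 12 genes of Complexes I and II, of which 4 were bound (nduf-2.2, nduf-11, nuaf-1 and mev-1), and 8 of Complexes III, IV and ATP synthase, of which 3 were (isp-1, sco-1 and R53.4). Citric acid cycle and pyruvate dehydrogenase genes stood at 8 of 18 and mitochondrial protein import genes at 7 of 12. Of the ADP/ATP carriers 1 of 4, ant-1.1, was bound, and of ubiquinone synthesis genes 0 of 8. The 5 of highest signal were all in both replicates' own lists. They were ddp-1, an import chaperone gene (677.9, rank 315, 151 bp upstream), sco-1, a copper delivery factor for Complex IV (579.7, rank 400, 210 bp upstream), dld-1, the dihydrolipoamide dehydrogenase gene (451.0, rank 584, 237 bp upstream), mev-1, the cytochrome b subunit of Complex II (403.2, rank 678, 132 bp upstream, a peak shared with jmjd-4) and tomm-20, an import receptor gene (375.4, rank 742, 287 bp upstream). None of these 5 reached the signals of cox-5B, cox-5A or cox-16. Complex II thus had peaks at sdha-2 and mev-1 and none in the conservative list at sdha-1, sdhb-1 or sdhd-1. The mev-1 summit was slightly nearer to the 5′ end of jmjd-4 (127 bp, against 132 bp), so it cannot be assigned to mev-1 alone. When each summit went to its nearest 5′ end only, 19 of the 62 genes were bound (30.6%, all genes 10.2%). The genes lost were mev-1, R53.4, aco-2 and tin-9.2.

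That list holds only some of the Complex I genes with other names, so every gene named ndab-, ndua-, ndub-, nduc-, nduf-, ndus- or nduv- was counted as well, a choice made after the values were seen. Of these 27 genes 14 were bound (51.9%, all genes 12.3%), the thresholded peaks of replicates 1 and 2 reached 8 and 15 of them, and 6 of the 27 are also in the list of 62. Their signals exceeded the 208.1 of nuo-1 at 5 genes. The strongest was ndub-8, for a membrane arm subunit (935.6, rank 175, 180 bp upstream), above cox-16 and just below cox-5A. It was followed by nduv-3 (440.7, rank 607), ndua-8 (430.8, rank 628), nduf-11 (288.7) and ndab-2 (208.6). Some of these peaks are shared. The summit at nduv-3 was nearer to mdf-2 (13 bp, against 172 bp). That at ndua-8 was nearer to rbc-2 and Y54F10AM.15 (128 and 138 bp, against 246 bp). The ndub-8 summit also counted for cup-14, further off at 448 bp. The other bound genes, with signals of 94.79 to 191.4, were ndab-1, ndua-2, ndua-7, ndua-13, ndub-5, ndub-10, nduc-2, nduf-2.2 and ndus-8. The summits at ndab-1 and ndua-2 were nearer to the 5′ ends of npp-16 and dnj-29. Genes of Complex IV assembly named coa- were likewise counted afterwards, and 3 of 6 were bound, coa-5 (273.1), coa-7 (221.2) and coa-3 (67.86), the last in neither replicate's own list.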

How the data were processed

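The authors deposited 8 peak lists on ce11, which is WBcel235, made with 1 control library per the text deposited beside them. The sources used here name no aligner or peak caller. The deposited score is a scaled irreproducible discovery rate, capped at 1000. The deposited signal is the authors' enrichment value per peak, used only to describe and rank peaks within a list. Summit positions come from the offsets that the authors deposited. Of the ranked lists that combine the replicates, only the one that carries the conservative list's scores was used. A further 40 unnamed columns of values were not used. Read counts are not in the lists, so depth is unknown.

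Summits, counted from 1, were joined to Ensembl release 115 5′ ends in Python 3.11.15 with pandas 2.3.3, numpy 2.4.6 and scipy 1.17.1. Proteins translated from the RefSeq annotation of WBcel235 were aligned with Biopython 1.88. The window was 500 bp, and summits of different lists were matched within 100 bp. Shares carry 95% Wilson intervals. The join of summits to genes was tested on simulated data. With 1 group of 2 replicates no test between conditions exists, and none was made between gene lists. Every member is named, with signal, rank, distance and the values of both replicates for the 10 strongest bound members. Values were also given for the paralog families, members in 1 replicate's own list alone and those with a nearest summit at 400 to 600 bp. At some of these genes a rank or a distance is left out. Of the other pathway genes, the 5 of highest signal have signal, rank and distance. The nd- and coa- genes were added, and named, after their values were seen. The members, lists and tests were chosen with earlier results of these data known, and GCGCCTTT and CTCGNAACG after member sequences were read. Alternatives varied the window, the list, the strength of peaks, the overlap rule and the assignment to genes.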

Additional observations from a re-analysis of the deposited data

Results flagged for a closer look

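Replicate 1's own list held 12 peaks on the mitochondrial genome (13794 bp), which encodes respiratory chain and ATP synthase subunits that the nuclear genes above complement. Replicate 2's lists held 0, as did the conservative list, the less strict list and the combined ranked list used here. The other combined ranked list was not counted. No count of nuclear genes uses these peaks, but the ranks given for replicate 1 include them. Without them the ranked-list ranks of members are lower by 3 at cox-5B (64), by 7 at cox-5A (156) and by 12 at every other member with a ranked summit. The strongest peak of the whole of replicate 1's own list (signal 2057, rank 1) lay in CYTB, the cytochrome b gene of Complex III. Of the 12 summits 10 lay in protein-coding genes, with signals of 764.9 in COX1 (rank 25), 571.6 in COX3, 494.6 in COX2, 445.5 in ND1 and 300.7 in ND4 for the strongest in each, and the lowest signal was 208.9. Whether mitochondrial reads were kept in the same way in both libraries is not given in the sources used here and was not tested.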

How the results depend on the processing

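The count of bound members stayed within 1.5 times the 18 reported in all 10 alternatives, at 12 to 21, and its ratio to the share of all genes, 3.56 as reported, ran from 3.10 to 4.01. It was 12 with a window of 250 bp, 21 with 1000 bp, 17 in the less strict list, 13 in the upper part of the list by signal, 14 when each summit went to its nearest 5′ end only, and 19, with cox-6B, when every transcript start counted. Without replicate 2 (replicate 1's own list) it was 13 and without replicate 1 (replicate 2's own list) 18. Replicate 2's own list shortened to the length of replicate 1's, an alternative chosen after seeing the data, gave 15. The genes asb-1, atp-1, atp-2, cox-5B, cyc-2.1, nuo-1, sdha-2 and ucr-1 (8) were bound under every setting.

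Of 80 counts for the members, the complexes and the other pathway genes, 71 stayed within 1.5 times the reported count and 9 moved further. ATP synthase ran from 4 to 7 with either replicate left out, the lower value being replicate 1's own list, which lacks atp-3, atp-4 and atp-5. Complex I ran from 1 to 3 in the same way, and was 1 in the upper part of the list and 1 in the shortened list of replicate 2, with nuo-2 and nuo-5 lost each time. Complex IV structural genes fell to 1 at 250 bp, without cox-5A and cox-6C, and rose to 6 at 1000 bp, with cox-4, cox-6A and cox-7C. The assembly factors ran from 1 to 2 with a replicate left out, the gain being cox-17, and were 0 at 250 bp and 0 when each summit went to its nearest 5′ end only, where the cox-16 summit went to syp-2. In the shortened list of replicate 2 ATP synthase was still at 7 and the assembly factors at 1. Unknown depth limits what the shorter list of replicate 1 can show. No paired analysis was possible because there is 1 group.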
